A study of Mus musculus with 18 samples.

Results

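The 10 core circadian clock genes Arntl, Clock, Npas2, Per1, Per2, Per3, Cry1, Cry2, Nr1d1 and Dbp were followed through RNA-seq of mouse left ventricle. They were taken by symbol, and all 10 were found among the 24421 gene symbols counted. The 18 hearts were from C57BL/6 mice, 3 in each of 6 groups. Young wild-type (WT) mice and mice lacking Sesn2 (Sesn2-KO), a stress-induced regulator of metabolic signalling, were 3 to 4 months old. Aged WT mice were 24 to 26 months old. Each kind of mouse had either ischaemia and reperfusion (IR), in which the left anterior descending coronary artery was tied for 45 min and blood flow was restored for 24 h, or a sham operation that opened the chest and left the artery open. Young WT mice were bought from Jackson and aged WT mice from Charles River, while Sesn2-KO mice were bred by the authors, so supplier cannot be told apart from age or genotype. The time of day of surgery and of tissue collection is not given in the sources used here. A shift in the phase of the rhythm and a change in its mean level therefore cannot be told apart in any value below.

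The clock is a feedback loop of transcription. ARNTL (also known as BMAL1) pairs with CLOCK or its relative NPAS2 and switches on the Per and Cry genes through E-box sequences, and PER and CRY proteins then hold that pair back. A further arm runs through NR1D1 (REV-ERB alpha), which is switched on by the same pair and represses Arntl and Npas2. DBP is a PAR bZIP factor that carries the rhythm to genes with a D-box. In the rodent heart these genes cycle over the day, with Arntl and Npas2 near their peak when Dbp, Nr1d1 and the Per genes are low.

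The libraries held 9404531 to 14458047 gene counts, and levels are given in CPM, a gene's reads scaled to the library's gene total. Sesn2 was at 0.362 CPM or less in the Sesn2-KO hearts and at 2.50 CPM or more in every WT heart. Ventricular muscle markers (Myh6, Tnnt2, Actn2, Ryr2 and Myl2) summed to 17887 to 27163 CPM. In 6 libraries, replicate 1 of the young and aged sham groups and replicate 3 of the Sesn2-KO sham group and of all 3 IR groups, deviations from the group mean rose with transcript length, with rank correlations of 0.31 to 0.48 across genes. These are called length-tilted below. A gene was called at an edgeR quasi-likelihood adjusted p below 0.05 (Benjamini-Hochberg over 13859 genes), and adjusted p-values are from that test unless another tool is named. Errors after ± are SD with n = 3 hearts unless marked SE.

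Promoter sequence was available from RefSeq (GRCm38.p6) for 9 of the 10 genes, in 13 windows that run from 250 bases before a transcript start to 50 after it. Per2 had no entry. The 250 bases before the start are shown for Per1, Cry1 and Per3, because these hold the E-box or the D-box letters, and for the first start of Arntl, because its product reads the E-box. Capitals mark the E-box CACGTG, the D-box TTANGTAA (N is any base) and AGGTCA, the core letters that NR1D1 reads, each searched on both strands.
Per1, chr11:69098699-69098948, plus strand: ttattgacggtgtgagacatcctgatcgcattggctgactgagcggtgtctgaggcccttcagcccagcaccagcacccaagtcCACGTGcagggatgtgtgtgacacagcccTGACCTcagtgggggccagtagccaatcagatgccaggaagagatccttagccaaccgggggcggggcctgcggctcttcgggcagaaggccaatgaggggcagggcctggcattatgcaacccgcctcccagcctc
Cry1, chr10:85185055-85185304, minus strand: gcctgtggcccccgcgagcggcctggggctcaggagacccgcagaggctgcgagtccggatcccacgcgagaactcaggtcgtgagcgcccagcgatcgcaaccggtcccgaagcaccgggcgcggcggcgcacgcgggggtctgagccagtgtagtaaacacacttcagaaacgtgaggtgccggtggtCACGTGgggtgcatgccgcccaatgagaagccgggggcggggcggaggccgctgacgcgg
Per3, chr4:151044666-151044915, minus strand: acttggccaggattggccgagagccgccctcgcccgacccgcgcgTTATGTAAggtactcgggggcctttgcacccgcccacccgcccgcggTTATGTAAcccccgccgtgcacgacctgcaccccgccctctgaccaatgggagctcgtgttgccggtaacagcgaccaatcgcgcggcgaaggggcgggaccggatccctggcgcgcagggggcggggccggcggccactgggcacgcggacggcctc
Arntl, chr7:113207215-113207464, plus strand: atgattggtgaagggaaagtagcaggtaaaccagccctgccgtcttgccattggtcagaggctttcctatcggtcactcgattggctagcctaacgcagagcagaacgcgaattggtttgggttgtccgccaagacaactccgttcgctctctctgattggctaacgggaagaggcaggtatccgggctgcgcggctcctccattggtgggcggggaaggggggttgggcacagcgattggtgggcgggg
The E-box of Per1 began 166 bases before its start and was followed by AGGTCA read on the other strand (TGACCT), 137 bases before the start. That of Cry1 began 60 bases before its start. Per3 held the D-box letters TTATGTAA at 205 and at 158 bases before its start. The first Arntl window held none of the 3 motifs, and a window from a start further downstream had AGGTCA 31 bases past that start. Clock had AGGTCA 119 bases before 1 of its 3 starts. The windows of Npas2, Cry2, Nr1d1 and Dbp, and the second Per1 window, held none. For comparison, CACGTG was in 7.15% of 32851 promoter windows of the genome, TTANGTAA in 2.32% and AGGTCA in 16.3%.

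Divided by the length of the longest annotated transcript, Dbp and Nr1d1 stood highest and the activators Arntl and Npas2 lowest, with the third activator, Clock, among the repressors. The median over 18 hearts was 90.4 CPM per kb for Dbp (range 48.8 to 151) and 32.9 for Nr1d1 (18.2 to 48.6), and this order held in 18 of 18 hearts. Cry2 followed at 14 CPM per kb and Per1 at 11.5, with Cry2 above Per1 in 13 hearts. Per3 (6.49 CPM per kb), Cry1 (5.94), Per2 (5.38) and Clock (5.15) lay close together. Neighbours among Per3, Cry1, Per2 and Clock were not separated by their spread: Per3 exceeded Cry1 in 13 of 18 hearts, and Cry1 exceeded Per2 in 10 and Per2 exceeded Clock in 10. Arntl (1.11 CPM per kb, range 0.348 to 4.20) and Npas2 (0.506, range 0.201 to 1.5) were lowest, with Arntl above Npas2 in 17 of 18 hearts. The ranges were not alike. From the lowest to the highest heart Arntl spanned 12.1-fold and Npas2 7.45-fold, whereas Clock, the steadier partner of ARNTL, spanned 1.88-fold and Cry1 1.70-fold.

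**Figure D1:**
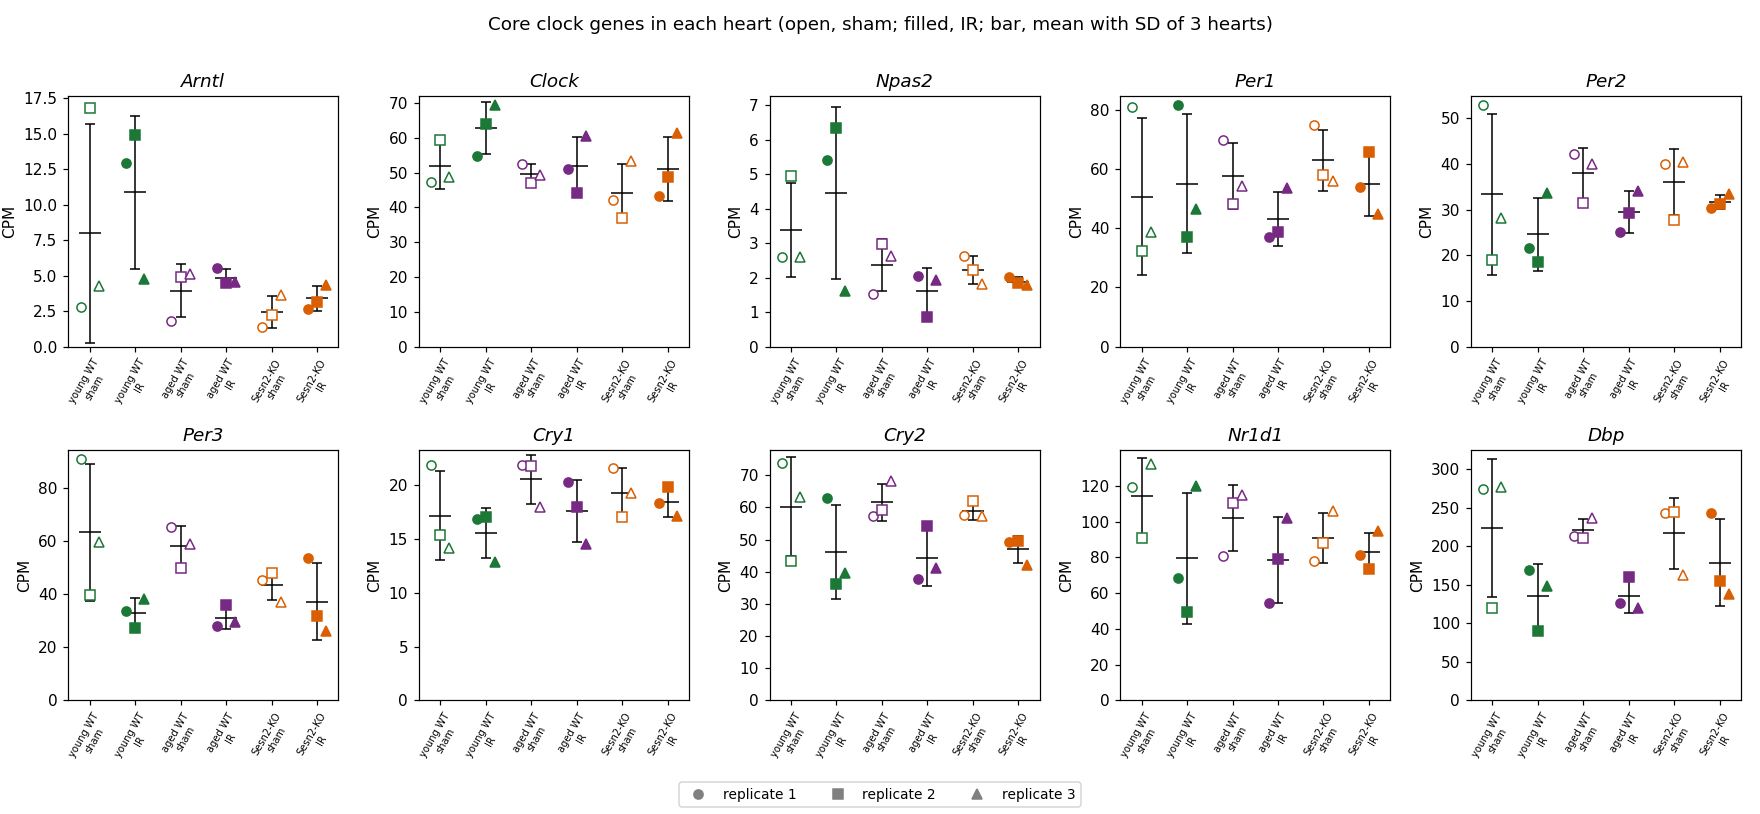
Levels of the 10 clock genes in each of the 18 hearts, in CPM on linear axes that start at 0. Open symbols are sham and filled symbols IR, the shape gives the replicate number, and bars give the mean with the SD of 3 hearts. Arntl and Npas2 stand far above the rest in young sham 2, young IR 1 and young IR 2, and Per3 is lower in every IR heart than in every sham heart of young WT and of aged WT.

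Arntl (chromosome 7, 113207465 to 113314126 on GRCm38, plus strand), the activator the loop cannot run without, was at 2.81, 16.79 and 4.30 CPM in young sham hearts 1, 2 and 3 and at 12.91, 14.92 and 4.77 CPM in young IR hearts 1, 2 and 3. In aged WT it was at 1.80, 4.89 and 5.14 CPM after sham and 5.56, 4.47 and 4.54 CPM after IR. In Sesn2-KO it was at 1.39, 2.23 and 3.62 CPM after sham and 2.64, 3.17 and 4.37 CPM after IR. Thus 3 young hearts, 1 sham and 2 IR, stood at 12.91 CPM or more and the other 15 hearts at 5.56 CPM or less. The lower of these levels rest on few reads, with 19 to 73 counts in the 15 hearts against 155 to 214 in the 3. The exact Poisson 95% interval of young IR 1, the lowest of the 3, was 11.0 to 15.1 CPM, and that of young IR 3 was 3.54 to 6.29 CPM. Intervals cover counting error only.

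Npas2 (chromosome 1, 39193731 to 39363236, plus strand), the CLOCK relative that can take its place beside ARNTL, was high in the same hearts. It was at 2.59, 4.94 and 2.60 CPM in young sham hearts, 5.41, 6.34 and 1.62 CPM in young IR hearts, 1.52, 2.96 and 2.62 CPM in aged sham hearts and 2.06, 0.85 and 1.92 CPM in aged IR hearts. Sesn2-KO hearts were at 2.64, 2.23 and 1.81 CPM after sham and 2.03, 1.84 and 1.78 CPM after IR. Young sham 2, young IR 1 and young IR 2 held the 3 highest values, 4.94 to 6.34 CPM, above a range of 0.85 to 2.96 CPM in the other 15. The lowest of the 3, young sham 2, had a Poisson interval of 3.80 to 6.33 CPM, and counts over all hearts were 8 to 82. Clock (chromosome 5, 76209868 to 76304792, minus strand) varied less. After sham it was at 51.8 ± 6.65 (young WT), 49.7 ± 2.69 (aged WT) and 44.1 ± 8.36 CPM (Sesn2-KO), and after IR at 62.8 ± 7.4, 51.9 ± 8.3 and 51.1 ± 9.19 CPM in the same order. Its highest value, 69.53 CPM, was in young IR 3, a length-tilted library that was low in Arntl and Npas2. The 3 hearts with high Arntl were at ranks 2, 5 and 6 of the 18 for Clock, and they held the 3 highest values (54.88 to 63.99 CPM) among the 12 libraries that were not length-tilted.

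The repressor genes were low in some of the hearts that were high in Arntl. Per2 (chromosome 1, 91415982 to 91459324, minus strand) was at 52.95, 18.99 and 28.16 CPM in young sham hearts and 21.65, 18.55 and 33.67 CPM in young IR hearts. The 3 hearts with high Arntl thus held the 3 lowest Per2 levels of the 18, since the other groups ran from 25.13 to 42.26 CPM. Per1 (chromosome 11, 69095217 to 69109960, plus strand), the period gene that also answers directly to stress hormones, did not follow in the same way. It was at 81.00, 32.25 and 38.63 CPM in young sham hearts and 81.69, 37.18 and 46.35 CPM in young IR hearts. Young IR 1 thus combined high Arntl with the highest Per1 of all 18 hearts, while young sham 2 had the lowest. Elsewhere Per1 was at 57.5 ± 11.1 CPM in aged sham, 43.1 ± 9.15 in aged IR, 63.0 ± 10.2 in Sesn2-KO sham and 54.8 ± 10.5 in Sesn2-KO IR hearts.

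Per3 (chromosome 4, 151003652 to 151044665, minus strand), the third period gene, which is dispensable for the loop itself, was at 90.96, 39.63 and 59.64 CPM in young sham hearts and 33.56, 27.13 and 38.25 CPM in young IR hearts. In aged WT it was at 65.43, 50.11 and 58.99 CPM after sham and 28.10, 35.94 and 29.50 CPM after IR. In Sesn2-KO it was at 45.57, 47.93 and 37.12 CPM after sham and 53.75, 31.88 and 26.14 CPM after IR. Every IR heart lay below every sham heart in young WT and in aged WT, and the Sesn2-KO groups overlapped because Sesn2-KO IR 1 held the highest value of its genotype.

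The cryptochromes, the partners of PER in the repressing complex, differed in spread, 1.70-fold from the lowest to the highest heart for Cry1 and 2.04-fold for Cry2. Cry1 (chromosome 10, 85131700 to 85185064, minus strand) was at 17.2 ± 4.14 (young WT), 20.5 ± 2.24 (aged WT) and 19.3 ± 2.29 CPM (Sesn2-KO) after sham, and at 15.6 ± 2.33, 17.6 ± 2.89 and 18.4 ± 1.38 CPM after IR in the same order. Cry2 (chromosome 2, 92403646 to 92434043, minus strand) was at 73.85, 43.48 and 63.29 CPM in young sham hearts and 63.04, 36.17 and 39.58 CPM in young IR hearts. In aged WT it was at 57.48, 59.15 and 68.06 CPM after sham and 37.85, 54.12 and 41.02 CPM after IR, and in Sesn2-KO at 57.52, 62.07 and 57.23 CPM after sham and 49.29, 49.49 and 42.06 CPM after IR. Sham and IR levels of Cry2 did not overlap in aged WT or in Sesn2-KO, and they overlapped in young WT.

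Nr1d1 (chromosome 11, 98767932 to 98775333, minus strand), the repressor of Arntl, was at 119.51, 90.64 and 132.11 CPM in young sham hearts and 68.62, 49.46 and 119.98 CPM in young IR hearts. Its lowest level of the 18 was thus in young IR 2, whose Arntl was the second highest. Aged WT hearts were at 102 ± 18.3 CPM after sham and 78.5 ± 23.8 CPM after IR, and Sesn2-KO hearts at 90.7 ± 14.1 and 83.1 ± 10.8 CPM. Dbp (chromosome 7, 45705088 to 45710203, plus strand) was at 274.01, 119.76 and 276.63 CPM in young sham hearts and 168.96, 89.73 and 148.12 CPM in young IR hearts. Aged WT hearts were at 213.24, 211.03 and 236.89 CPM after sham and 125.80, 160.56 and 120.34 CPM after IR. Sesn2-KO hearts were at 242.59, 243.66 and 163.16 CPM after sham and 242.78, 155.41 and 138.02 CPM after IR. Young IR 2 and young sham 2, high in Arntl, held the lowest 2 levels of Dbp, and young IR 1 did not share this. Some exon bases are shared with genes on the other strand: 539 bases (18.01%) of Dbp with Sphk2, 263 (8.55%) of Nr1d1 with Thra and 295 (4.67%) of Cry2 with D930015M05Rik. The strand setting of the counting is not given in the sources used here, so reads of such pairs cannot be told apart.

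**Figure D2:**
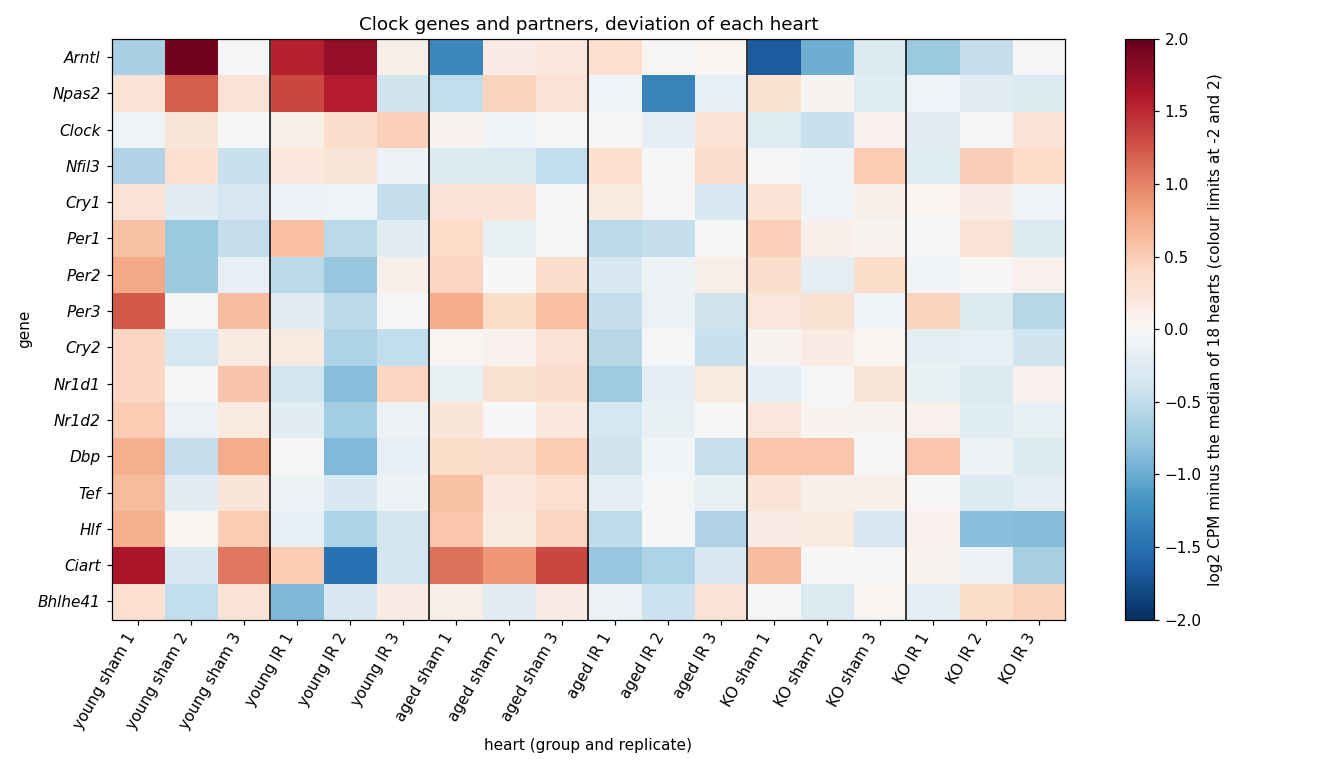
Each cell is the log2 CPM of a clock gene or clock partner in 1 heart minus that gene's median over the 18 hearts. Red is above and blue below the median, colour limits are -2 and 2, and black lines part the 6 groups. Young sham 2, young IR 1 and young IR 2 are dark red in Arntl and Npas2, and young IR 2 is blue in most rows from Per1 to Ciart.

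The 3 young hearts with high Arntl carried both surgeries and therefore widened the young groups. The standard deviation of log2 CPM within groups, pooled over the 6, was 0.791 for Arntl, which put it at percentile 97.6 of all tested genes and at percentile 97.1 of genes within 2-fold of its mean CPM. Npas2 was at 0.572 (percentile 82.4 among genes of its level), Dbp at 0.434 (percentile 95.7) and Per1 at 0.435 (percentile 95.6). Cry1 (0.213, percentile 52.5) and Clock (0.199, percentile 57.6) lay in the middle of genes of their level, and Cry2 (0.292, percentile 83.4) above it. The spread of Arntl differed among the groups, with a highest-to-lowest ratio of 5.99 in young sham and 3.13 in young IR hearts and of 1.24 to 2.86 in the 4 other groups. None of the 3 hearts was a length-tilted library, with rank correlations of -0.43 (young sham 2), -0.19 (young IR 1) and -0.10 (young IR 2) between deviation and length. In young sham 2 deviations thus fell with transcript length, about as strongly as they rose in the length-tilted libraries. The labels give no litter, surgery day or hour that could be set beside them.

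The ratio of Dbp to Arntl, 2 genes that peak in opposite parts of the day, was lowest in the hearts with high Arntl. Arntl is its denominator, so the ratio is not separate from that grouping. In log2 units it was 6.61, 2.83 and 6.01 in young sham hearts and 3.71, 2.59 and 4.96 in young IR hearts. It was 6.89, 5.43 and 5.53 in aged sham, 4.50, 5.17 and 4.73 in aged IR, 7.45, 6.77 and 5.50 in Sesn2-KO sham and 6.52, 5.61 and 4.98 in Sesn2-KO IR hearts. On the linear scale Dbp exceeded Arntl 6.02-fold in young IR 2, 7.13-fold in young sham 2 and 13.1-fold in young IR 1, and 174-fold in Sesn2-KO sham 1. Group means were 5.15 ± 2.03 and 3.75 ± 1.18 in young WT after sham and IR, 5.95 ± 0.816 and 4.8 ± 0.339 in aged WT, and 6.57 ± 0.990 and 5.71 ± 0.776 in Sesn2-KO. Sham and IR ratios overlapped in young WT and in Sesn2-KO. In aged WT every IR heart was below every sham heart. After IR every Sesn2-KO heart was above every young WT heart, narrowly at the nearest pair (4.98 against 4.96). Dbp alone overlapped between these last groups. How often a ratio of 2 genes parts groups in this way was not counted.

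**Figure D3:**
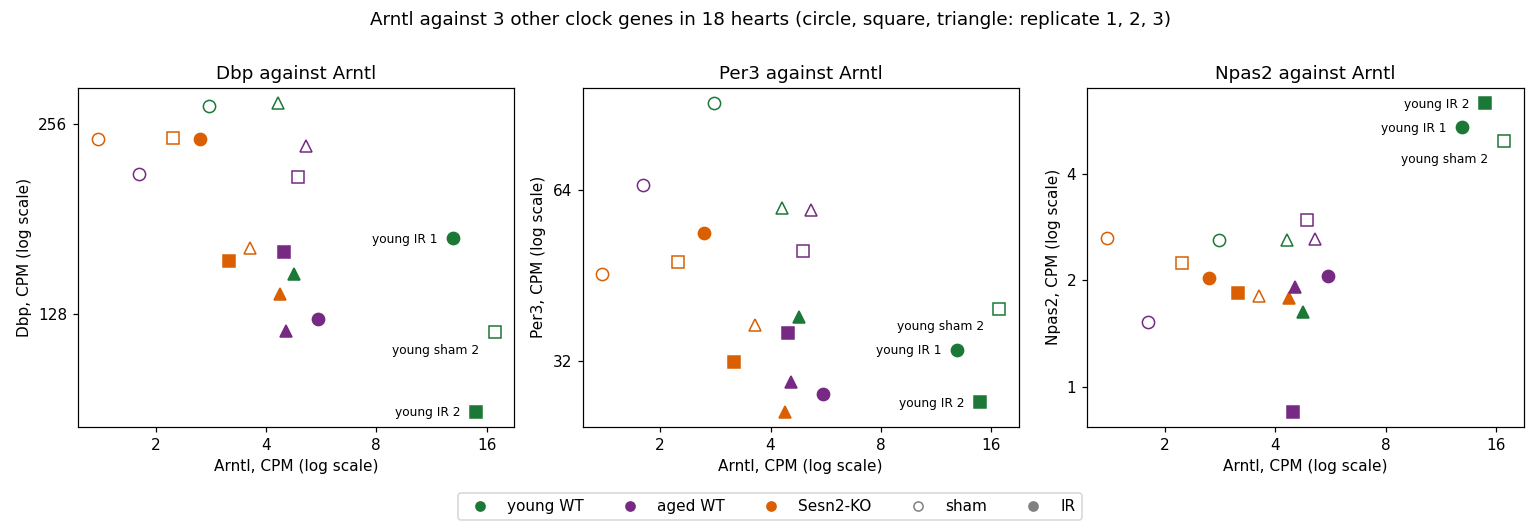
Dbp, Per3 and Npas2 against Arntl in the 18 hearts, all in CPM on log axes. Colour gives age and genotype, open symbols are sham and filled symbols IR, and the shape gives the replicate. Young sham 2, young IR 1 and young IR 2 sit apart at the right, at Arntl levels of 12.91 to 16.79 CPM.

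Whether the other clock genes followed Arntl was examined within the 15 hearts below 10 CPM of Arntl, because the 3 high hearts form a separate cluster; this limit was chosen after the data were seen. No pooled r is given over all 18 hearts. There the Pearson relations of Clock, Npas2, Per2 and Dbp with Arntl had an adjusted permutation p below 0.05, with the 3 high hearts included. That of Per1 did not (0.0511), and with group means removed only that of Per3 did among the 9. By Spearman's rho Per1 passed (adjusted permutation p = 0.0361) and Npas2 did not (0.0835), while Clock, Per2 and Dbp passed again. With raw library totals Per1 also passed by Pearson's r (adjusted permutation p = 0.0446). Over these 15 hearts log2 Per1 was lower where log2 Arntl was higher (Pearson's r = -0.76, permutation p = 0.00089, adjusted over 9 relations 0.00801; Spearman's rho = -0.72, permutation p = 0.00295, adjusted 0.0266). Without the 2 hearts farthest from the median of Arntl r was -0.66, and with group means removed it was -0.69 (permutation p = 0.00689, adjusted 0.0620). Dbp had r = -0.47 (rho -0.48; permutation p = 0.0798 and 0.0725, adjusted 0.239 and 0.326) and Clock r = 0.53 (rho 0.43; permutation p = 0.0429 and 0.112, adjusted 0.193 and 0.336). The other 6 relations had r from -0.40 to 0.25 with adjusted permutation p of 0.294 to 0.732. Among them were Npas2 (r = -0.10, adjusted permutation p = 0.732) and Per2 (r = -0.35, adjusted permutation p = 0.294), which had passed over 18 hearts. In the 9 of these hearts that were not length-tilted, r was -0.80 for Per1 (exact permutation p = 0.0106, adjusted 0.0479; rho -0.70, exact p = 0.0433, adjusted 0.195) and 0.81 for Clock (exact permutation p = 0.00855, adjusted 0.0479; rho 0.90, exact p = 0.00203, adjusted 0.0183). Without the 2 farthest hearts these were -0.60 and 0.82. With group means removed they were -0.55 for Per1 and -0.25 for Clock, which turned its sign (permutation p = 0.750 and 1.00, where the 4 groups of 2 hearts left allow no p below 0.125).

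The effect of IR was asked first in young WT. None of the 10 genes was called by edgeR, where 6.07% of all tested genes were called in either direction, and 2 of the 10 had an unadjusted p below 0.05, against 21% of all genes. Per3 came nearest, with a sham mean of 63.4 ± 25.9 CPM and an IR mean of 33.0 ± 5.58 CPM. Its log2 fold change was -0.96 (SE 0.275, 95% interval -1.54 to -0.38, adjusted p = 0.0511). Dbp, the other gene below 0.05 unadjusted, was at -0.73 (SE 0.306, interval -1.38 to -0.09, adjusted p = 0.181), with means of 223 ± 89.8 and 136 ± 41.1 CPM. Nr1d1 was at -0.55 (adjusted p = 0.286), Per2 at -0.46 (0.407) and Cry2 at -0.39 (0.331). The activators had positive values, Arntl 0.44 (interval -0.74 to 1.61, adjusted p = 0.720), Npas2 0.39 (0.652) and Clock 0.25 (0.391), as did Per1 (0.12, 0.882). The groups did not overlap for 1 gene, Per3, which was lower; 9.63% of all tested genes were lower without overlap. The median of the 10 was -0.27, with 6 negative values, against 0.01 over all tested genes.

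Calls in young WT changed with the tool and with single hearts. DESeq2's Wald test called 1 of the 10, Per3 (-0.97, adjusted p = 0.0118), and limma voom with quality weights called 4, Per3 (-0.97), Dbp (-1.11), Nr1d1 (-0.88) and Cry2 (-0.66), with adjusted p of 0.00511 to 0.0302. Without young sham 2, the sham heart with high Arntl, edgeR called Per3 (-1.21, adjusted p = 0.0204) and Dbp (-1.03, adjusted p = 0.0471). Without young IR 1 it called Cry2 (-0.71, adjusted p = 0.0347). Without young sham 1, whose Per3 of 90.96 CPM was the highest of all, Per3 was at -0.62 (adjusted p = 0.261).

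In aged WT hearts, which had no heart with high Arntl, the same genes led. None of the 10 was called by edgeR (7.61% of all tested genes were called), and 2 had an unadjusted p below 0.05 (23.7% of all genes). Sham hearts averaged 58.2 ± 7.69 CPM of Per3 and IR hearts 31.2 ± 4.18 CPM, a log2 fold change of -0.89 (SE 0.276, interval -1.47 to -0.30, adjusted p = 0.0612). Dbp went from 220 ± 14.3 to 136 ± 21.8 CPM, at -0.68 (SE 0.306, interval -1.33 to -0.04, adjusted p = 0.188), and Cry2 from 61.6 ± 5.69 to 44.3 ± 8.63 CPM, at -0.46 (SE 0.218, adjusted p = 0.217). Npas2 was at -0.52 (adjusted p = 0.531) and Nr1d1 at -0.36 (0.471). Arntl was at 0.33 (adjusted p = 0.784) and near 0 (-0.04) without aged sham 1, its lowest aged heart. Per3, Cry2 and Dbp were lower without overlap, where 13.8% of all tested genes were. The median of the 10 was -0.38, with 8 negative values, against 0.00 over all genes. DESeq2's Wald test called Per3 (-0.90, adjusted p = 0.0203), and limma voom called Per3 (-0.97), Cry2 (-0.63) and Dbp (-0.78), with adjusted p of 0.00356 to 0.0351. A fit of the 6 aged libraries alone by edgeR called Per3 (-0.90, adjusted p = 0.0147) and Dbp (-0.70, adjusted p = 0.0267).

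In Sesn2-KO hearts none of the 10 was called between IR and sham by edgeR, DESeq2 or limma voom, and none had an unadjusted p below 0.05. Over all genes edgeR called 0% here, with 14.7% at an unadjusted p below 0.05. Per3 averaged 43.5 ± 5.68 CPM after sham and 37.3 ± 14.6 CPM after IR (log2 fold change -0.28, interval -0.86 to 0.31, adjusted p = 0.683). Without Sesn2-KO IR 1 it was at -0.65 (adjusted p = 0.184). Dbp was at -0.32 (interval -0.97 to 0.33, adjusted p = 0.662), or -0.63 without Sesn2-KO IR 1 (adjusted p = 0.282). Cry2 was at -0.38 (interval -0.84 to 0.08, adjusted p = 0.431) and was the 1 gene lower without overlap, where 5.49% of all tested genes were. Arntl was at 0.44, and the median of the 10 was -0.25, with 8 negative values, against 0.00 over all genes.

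Markers of other cell types differed in level between surgeries. Each level is one of whole ventricle, so fewer cells of a type and less RNA per cell cannot be told apart. Neutrophil markers (5 of 5 with counts) summed to 4.77 to 6.57 CPM in young sham and 53.2 to 113 CPM in young IR hearts, 4.84 to 16.3 and 83.8 to 158 CPM in aged WT, and 28.4 to 80.1 and 72.0 to 147 CPM in Sesn2-KO. Cardiomyocyte markers (5 of 5) summed to 25099 to 27163 and 20701 to 24875 CPM in young WT, 26259 to 27158 and 20511 to 24221 CPM in aged WT, and 21550 to 22392 and 17887 to 21720 CPM in Sesn2-KO. The lower sums after IR came mostly from Myh6, the adult myosin heavy chain, at means of 14122 and 10513 CPM in young WT and 14351 and 9440 CPM in aged WT, whereas Tnnt2 was at 5127 and 5310 CPM and at 5042 and 5505 CPM. Endothelial markers (5 of 5) summed to 1014 to 1083 and 887 to 916 CPM in young WT and to 890 to 1013 and 740 to 811 CPM in aged WT, and ran from 666 to 908 and from 713 to 982 CPM in Sesn2-KO. The part of these shifts in the clock values was not tested. With the 6 length-tilted libraries left out Per3 was at -0.75 in young WT (adjusted p = 0.319) and -0.78 in aged WT (adjusted p = 0.198).

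None of the 10 genes was called for a difference in IR response. For aged minus young WT edgeR called 0% of all genes, with 1.1% at an unadjusted p below 0.05, and for Sesn2-KO minus young WT 0.0577%, with 5.55% at an unadjusted p below 0.05; no clock gene reached 0.05 unadjusted in either. DESeq2 and limma voom called none of the 10 either. The difference for Per3 was 0.07 for aged WT (interval -0.75 to 0.90) and 0.68 for Sesn2-KO (interval -0.14 to 1.51, adjusted p = 0.955). For Dbp it was 0.05 (interval -0.87 to 0.97) and 0.41 (interval -0.50 to 1.33). These differences share the young WT hearts, and the intervals leave room for unequal as well as equal responses.

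**Figure D4:**
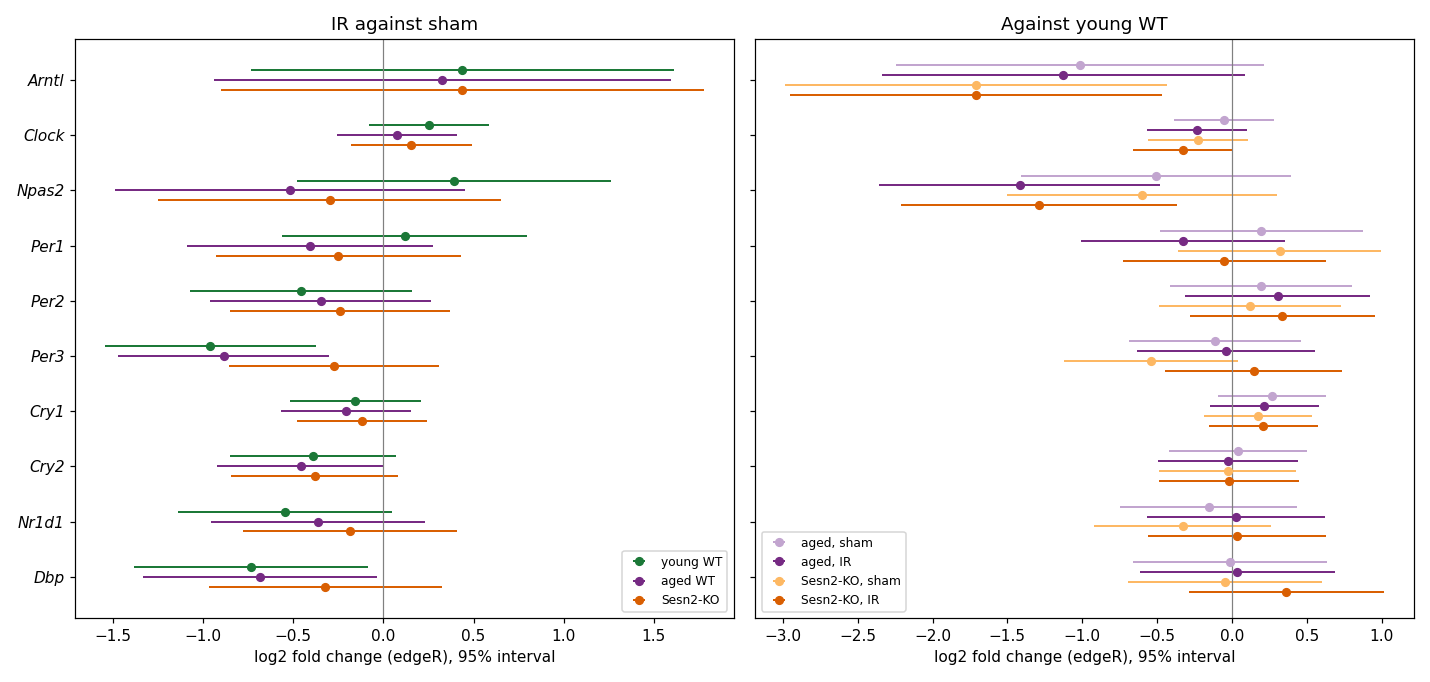
Log2 fold changes of the 10 clock genes by edgeR with 95% intervals, for IR against sham (left) and for aged WT and Sesn2-KO against young WT (right). The intervals of Per3 and Dbp lie below 0 for IR in young and aged WT, and those of Arntl lie below 0 for Sesn2-KO against young WT. Those of Npas2 lie below 0 after IR for aged WT and for Sesn2-KO against young WT.

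Age was compared within each surgery. Among sham hearts none of the 10 was called by edgeR, DESeq2 or limma voom, and none had an unadjusted p below 0.05 (edgeR called 0.152% of all genes, 4.44% at an unadjusted p below 0.05). Arntl was at 7.97 ± 7.68 CPM in young and 3.94 ± 1.86 CPM in aged sham hearts, a log2 fold change of -1.02 (SE 0.580, interval -2.24 to 0.21, adjusted p = 1.00). Without young sham 2 the direction turned, to 0.15. Npas2 was at -0.51 (interval -1.41 to 0.39), or -0.13 without young sham 2. The other 8 genes were between -0.16 (Nr1d1) and 0.27 (Cry1). Among IR hearts none was called by any of these tools (edgeR called 0.0649% of all genes), and Npas2 had an unadjusted p below 0.05 (3.99% of all genes). Npas2 was at 4.46 ± 2.50 CPM in young and 1.61 ± 0.660 CPM in aged IR hearts, a log2 fold change of -1.42 (SE 0.444, interval -2.36 to -0.48, adjusted p = 0.750). The groups overlapped, because young IR 3, at 1.62 CPM, lay between aged IR hearts at 0.85 and 2.06 CPM. Arntl was at 10.9 ± 5.37 CPM in young and 4.85 ± 0.611 CPM in aged IR hearts (-1.13, SE 0.572, interval -2.34 to 0.09, adjusted p = 1.00), also with overlap.

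Loss of Sesn2 was compared in the same way, with the young WT hearts again as reference. Among sham hearts none of the 10 was called by edgeR, where 5.11% of all tested genes were called, and Arntl had an unadjusted p below 0.05 (19% of all genes). Arntl was at 2.41 ± 1.12 CPM in Sesn2-KO against 7.97 ± 7.68 CPM in young WT sham hearts, a log2 fold change of -1.71 (SE 0.601, interval -2.98 to -0.44, adjusted p = 0.122). The groups overlapped, since young sham 1 was at 2.81 CPM. DESeq2's Wald test called it (-1.74, adjusted p = 0.0391) and limma voom did not call any of the 10. Without young sham 2 Arntl was at -0.55 (adjusted p = 0.634). Per3 was at -0.54 (adjusted p = 0.303), Npas2 at -0.60 (0.495) and Nr1d1 at -0.33 (0.588), and Dbp at -0.05 (0.963). Neutrophil markers summed to 28.4 to 80.1 CPM in Sesn2-KO sham hearts against 4.77 to 6.57 CPM in young sham hearts, and their part in these values was not tested.

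After IR none of the 10 was called in Sesn2-KO against young WT by edgeR, DESeq2 or limma voom (edgeR called 0.433% of all genes), and 2 had an unadjusted p below 0.05 (12.7% of all genes). These were Arntl, at 3.39 ± 0.887 against 10.9 ± 5.37 CPM (-1.71, SE 0.586, interval -2.95 to -0.47, adjusted p = 0.242), and Npas2, at 1.88 ± 0.131 against 4.46 ± 2.50 CPM (-1.29, SE 0.435, interval -2.21 to -0.37, adjusted p = 0.229). Every Sesn2-KO IR heart lay below every young IR heart for Arntl (4.37 against 4.77 CPM at the nearest pair), where 4.6% of all tested genes were lower without overlap. Cry1 was higher without overlap (8.14% of all genes), at 17.10 to 19.86 against 12.88 to 17.00 CPM, with a log2 fold change of 0.21 (adjusted p = 0.649). Dbp was at 0.36 (interval -0.29 to 1.01, adjusted p = 0.658). Atrial muscle markers (Myl7, Myl4, Sln and Nppa) summed to 899 to 1754 CPM in Sesn2-KO IR hearts against 144 to 712 CPM in young IR hearts. Most of each sum was Nppa, at 807 to 1747 and 139 to 710 CPM. Myl7 was at 0.501 to 255 CPM in Sesn2-KO IR and 0.0954 to 1.67 CPM in young IR hearts. Sln was at 0.167 to 105 CPM against 0, so these 2 were not high in every Sesn2-KO IR heart. The part of the atrial markers was not tested. The comparisons of aged WT and of Sesn2-KO with young WT share the young hearts of each surgery, so the hearts with high Arntl enter every one of them on the young side.

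The wider clock was read from 14 partner genes (the nuclear receptors Nr1d2 and Rora, the repressors Bhlhe40, Bhlhe41 and Ciart, the bZIP factors Nfil3, Tef and Hlf, the kinases and ubiquitin ligase subunits that set PER and CRY turnover, and Timeless). Of the 14, 0 rose and 1 fell in aged WT after IR, and 0 rose and 0 fell in the other 8 comparisons; over all tested genes 2.24% were called lower in aged WT after IR. The 1 was Ciart (also called Chrono), a repressor of the ARNTL complex. It was at 16.7, 14.4 and 19.7 CPM in aged sham and 4.65, 5.10 and 6.28 CPM in aged IR hearts, a fall of 1.65 on the log2 scale (SE 0.448, adjusted p = 0.0358). Leaving out any heart of these groups but aged sham 2 ended that call (aged sham 1 or 3, aged IR 1, 2 or 3; -1.53 to -1.78, adjusted p 0.0719 to 0.160), as did leaving out the length-tilted libraries (-1.82, adjusted p = 0.172), the length covariate (-1.57, adjusted p = 0.0540) and testing all genes with no filter (-1.69, adjusted p = 0.0547). In young WT Ciart was at 24.3, 6.28 and 16.4 CPM after sham and 11.2, 2.78 and 6.10 CPM after IR (-1.23, adjusted p = 0.112), lowest in young IR 2, and in Sesn2-KO its change was -0.50 (adjusted p = 0.637). The D-box factors Tef and Hlf, relatives of DBP, had IR values in young WT of -0.43 (adjusted p = 0.148) and -0.84 (adjusted p = 0.0667). The median of the 14 partners after IR was -0.15, -0.20 and -0.10 in young WT, aged WT and Sesn2-KO, against 0.01, 0.00 and 0.00 over all tested genes.

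Of 12 genes known to follow the clock in heart or other tissue (Usp2, Wee1, Klf15, Kcnip2, Pdk4, Ucp3, Dgat2, Nampt, Por, Lonrf3, Pik3r1 and Tspan4), 1 rose in aged WT after IR, 2 rose in Sesn2-KO against young WT sham hearts, and 0 passed elsewhere. Over all tested genes 5.36% and 3.32% were called higher in these 2 comparisons. Tspan4, a tetraspanin gene, rose in aged WT after IR (0.81, SE 0.174, adjusted p = 0.0122) and in Sesn2-KO sham hearts (0.79, SE 0.174, adjusted p = 0.0168). Por, the electron donor of cytochrome P450 enzymes, rose in Sesn2-KO sham hearts (0.45, SE 0.0941, adjusted p = 0.0129). The Tspan4 call was lost without aged sham 1 or aged IR 1 in the first comparison and without young sham 1 or 2 or Sesn2-KO sham 1 or 2 in the other, and the Por call without young sham 2 or 3. There the 2 genes were at 0.39 to 0.78, with adjusted p of 0.0543 to 0.0805. Por was also not called without the length-tilted libraries (0.46, adjusted p = 0.0711) or with the compared libraries alone (0.42, adjusted p = 0.0666). In Sesn2-KO after IR 10 of the 12 values were negative with a median of -0.49 (0.00 over all tested genes), and 0 passed.

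Glucocorticoids set peripheral clocks and act directly on Per1, so 11 glucocorticoid-induced genes were read beside the clock. Of these, 6 rose in young WT after IR, where 4.17% of all tested genes were called higher: Fkbp5 (1.92, adjusted p = 0.00670), which dampens the receptor, the metallothioneins Mt1 (1.36, 0.00400) and Mt2 (2.77, 8.88e-05), the cell-cycle inhibitor Cdkn1a (2.09, 0.0101), Errfi1 (0.92, 0.0125) and Angptl4 (2.60, 0.0105). In aged WT 3 rose, Mt1 (1.33), Mt2 (2.78) and Angptl4 (3.59), with adjusted p of 9.92e-05 to 0.00443 (5.36% of all tested genes were called higher). In Sesn2-KO sham hearts 4 were higher than in young WT, Fkbp5 (1.71), Mt1 (1.25), Mt2 (2.66) and Angptl4 (3.46), with adjusted p of 0.000111 to 0.0140 (3.32% of all tested genes), and 0 passed in the other 6 comparisons. The called genes also answer to hypoxia, metals or inflammation. The other 5 (Tsc22d3, Sgk1, Zbtb16, Klf9 and Ddit4) passed in no comparison. Of the 11 log2 fold changes after IR, 10 were positive in young WT, 6 in aged WT and 7 in Sesn2-KO. Mean Klf9 went from 112 to 87.1 CPM in young WT and from 125 to 74.1 CPM in aged WT. Mean Tsc22d3 went from 127 to 143 CPM and from 126 to 105 CPM. In young WT mean Ddit4 went from 37.6 to 75.4 CPM, Sgk1 from 72.9 to 93.1 and Zbtb16 from 26.9 to 39.9. In aged WT they went from 48.4 to 44.4, from 74.2 to 66.6 and from 39.6 to 38.1 CPM. Mt2 was at 28.8, 20.5 and 25.4 CPM in young sham and 223, 108 and 182 CPM in young IR hearts, with no overlap, whereas Per1 was high in 1 heart of each of these groups. Without the length-tilted libraries the 6 genes were not called in young WT (adjusted p 0.0708 to 0.287), with log2 fold changes of 1.89 for Fkbp5, 1.42 for Mt1, 2.82 for Mt2, 1.96 for Cdkn1a, 1.06 for Errfi1 and 2.18 for Angptl4. Neither were Mt1 (1.37) and Angptl4 (3.29) in aged WT (adjusted p 0.0926 and 0.0892) or Fkbp5 (1.47), Mt1 (1.21) and Angptl4 (3.01) in Sesn2-KO sham hearts (0.107 to 0.130). A fit of the young libraries alone did not call Mt1, Errfi1 or Angptl4 after IR (adjusted p 0.0585 to 0.113), with log2 fold changes of 1.36, 0.92 and 2.60 as in the fit of all libraries. Of single hearts, young sham 1 ended the calls of Cdkn1a, Errfi1 and Angptl4, young sham 3 those of Errfi1 and Angptl4, and young IR 3 that of Angptl4 (adjusted p 0.0507 to 0.0626), and the Fkbp5 call in Sesn2-KO sham hearts was lost without young sham 2 or 3 or Sesn2-KO sham 3 (adjusted p 0.0530 to 0.0666).

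The genes most like Arntl and Dbp were found by the correlation of log2 CPM over the 18 libraries with group means removed, among 10646 genes of at least 5 CPM. The points share library depth and length tilt and include the hearts with high Arntl, and the values are descriptions. Most like Arntl were Mmp14 (r = 0.89), Ppp2r5a (0.88), Clmp (0.84), Unc119b (0.78) and Rab8a (0.78), and most opposite were Myo1d (-0.87), Tmem57 (-0.85), Tef (-0.79), Nfatc1 (-0.78) and Phc3 (-0.78). Tef is the 1 gene of the clock lists among these 10. With group means kept, the relation with Arntl was weaker for each of them but Ppp2r5a. For Dbp the nearest were Hlf (0.87) and Per3 (0.86), both clock genes, followed by Aim1 (0.85), Fam76a (0.85) and Rnf207 (0.84). Most opposite to Dbp were Sephs2 (-0.86), Prmt7 (-0.85), Mrps27 (-0.84), Slc35g2 (-0.84) and Spsb3 (-0.83). With group means kept, r with Dbp ran from 0.44 (Aim1) to 0.86 (Fam76a) for the nearest genes. For the most opposite genes it ran from -0.27 (Mrps27) to -0.85 (Spsb3). Hlf was at 81.2, 50.1 and 69.5 CPM in young sham hearts and 43.6, 32.0 and 38.0 CPM in young IR hearts, lowest in young sham 2 and young IR 2 of their groups, the hearts where Dbp was lowest. Per3 was also lowest in these 2 hearts of their groups.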

How the data were processed

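Left ventricles of 18 mice were profiled by RNA-seq (TruSeq stranded mRNA kit, paired-end reads, per the labels' protocols). The authors deposited whole-number read counts per gene symbol, not normalized. The build was mm10, and HTSeq, TopHat2, Bowtie2, SAMtools and FastQC are named in the submitters' processing notes. Versions, strand setting and annotation: not given in the sources used here. The 2 summary lines (6.12% to 9.06% of counts in no gene) stayed out of totals and tests.

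The main test was edgeR 4.0.16 under R 4.3.3 (filterByExpr, TMM, robust quasi-likelihood), with a mean for each of 6 groups over all 18 libraries and 9 contrasts; 13859 genes were tested. SE and intervals come from the quasi-likelihood variance. CPM uses raw gene-count totals; log2 CPM uses a prior count of 2. Correlations used 100000 permutations, or all of them for 9 hearts with group means kept. With group means removed, 100000 shuffles within groups were used throughout. Positions and lengths are from GENCODE M21 by symbol. The steps were tested on simulated counts. The edgeR p-values set group differences against a spread between hearts that was estimated over the 6 groups. Permutation p-values come from shuffling hearts. No replicate pair agreed within sampling noise (chi-square per degree of freedom 8.9 to 50.9).

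All 10 clock genes were named. Of the partner, output and glucocorticoid lists, genes called in at least 1 comparison were named. Values of Tef, Hlf and the glucocorticoid genes not called are given outside that rule. Arntl and Dbp each had their 5 most alike and 5 most opposite genes named, leaving out predicted and clone-named ones. Members and lists were chosen with earlier results of these data known. Of the partner list, 1 gene is not reported here. Alternatives were DESeq2 1.42.0 (size factors, Wald test), upper quartile scaling, no filter, limma 3.58.1 voom, a replicate block, a length covariate, leaving out the length-tilted libraries or each library, a fit of the compared libraries alone and, for the Dbp to Arntl ratio, a pseudocount of 1.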

Additional observations from a re-analysis of the deposited data

How the results depend on the processing

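The number of clock genes called was 0 in all 9 comparisons. In young WT after IR it became 1 with DESeq2 size factors, 1 with DESeq2's Wald test, 4 with limma voom and 0 to 2 with single libraries left out (2 without young sham 2, 1 without young IR 1). In aged WT after IR it became 1 with the Wald test, 3 with voom and 2 with the aged libraries alone, and stayed 0 with single libraries left out. In Sesn2-KO against young WT sham hearts it became 1 with the Wald test. Apart from the replicate block below, all other alternatives gave 0 (136 of 147 values over the 9 comparisons were 0).

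Arntl changed sign in aged WT after IR, from 0.33 to -0.026 with the length covariate, -0.010 without the 6 length-tilted libraries and -0.035 without aged sham 1 (-0.035 to 0.56 with single libraries left out), and in aged against young sham hearts from -1.02 to 0.15 without young sham 2 (-1.43 to 0.15 with single libraries left out). Over all named genes 639 alternative values kept direction and side of the threshold, 18 gained a call, 41 lost one and 4 changed sign. With a pseudocount of 1 the mean log2 Dbp to Arntl ratio of each group stayed within 1 SD of its main value. Leaving out a single heart cannot move the mean of so small a group by 1 SD. That check therefore cannot show whether the ratio depends on single hearts. By Pearson's r, 4 of 9 relations with Arntl passed over all 18 hearts (Clock, Npas2, Per2 and Dbp), which include the hearts with high Arntl. Over the 15 below 10 CPM 1 passed (Per1). There were 2 over the 9 of these that were not length-tilted (Per1 and Clock) and 1 over the 18 with group means removed (Per3). By Spearman's rho over all 18 hearts Per1 passed and Npas2 did not.

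The fit with the replicate number as a block called 1 clock gene, Per3, in young WT after IR (-0.92, adjusted p = 0.0427) and 1, Per3, in aged WT after IR (-0.86, adjusted p = 0.0468), and no other; over all genes it moved the calls from 841 to 879 and from 1054 to 1236. The labels do not say that same-numbered hearts are paired. Correlations of their deviations from the group means ran from -0.27 to 0.72, and in 0 of 7 comparisons did every heart correlate best with its own number. Depth limits Arntl and Npas2, at 19 to 214 and 8 to 82 counts per library.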
